A study of Mus musculus with 6 samples.

Results

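Dendritic cells of the conventional type 2 were looked for in nuclei of the photothrombotic (PT) brain lesion through the genes Mgl2, Cd209a, Tnfsf8 and Gna14, and the nuclei so chosen are called the selected nuclei. A nucleus was selected on its own measured counts when it held a UMI (a unique molecular identifier, 1 counted RNA molecule) of at least 2 of the 5 genes Mgl2, Cd209a, Tnfsf8, Gna14 and Lyzl4 and of at least 1 of the MHC class II genes Cd74, H2-Aa and H2-Ab1. It could hold a UMI of at most 1 of Xcr1, Clec9a, Ccr7, Cd3e, Pax5 and Col1a2, which mark other dendritic cells, T cells, B cells and fibroblasts. Nuclei needed 800 UMIs or more and under 5% mitochondrial UMIs. The rule found 453 nuclei among 61973 that passed this filter, of 67360 deposited barcodes.

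PT injury clots vessels of the cortex with light, and single-nucleus RNA was measured from dissected lesions at 7 and 21 days post injury (dpi). Control mice were wild type (WT) with no treatment named in the labels, which do not say whether they received tamoxifen or an isotype antibody. ADWA11 mice were WT and received ADWA11, an antibody against the integrin αvβ8, which activates latent TGFβ, at 10 mg/kg intraperitoneally on the day of injury and weekly until collection. Tgfbr2-cKO mice carried Col1a2(creER); Tgfbr2(flox), so that tamoxifen removes the TGFβ receptor gene Tgfbr2 in cells that use the Col1a2 promoter, mainly fibroblasts. All 3 groups had PT injury. Mice were 7 to 21 weeks old where the methods name no other age. Each library pooled the lesions of 1 male and 1 female mouse, from which DAPI+ nuclei were sorted, and Tgfbr2-cKO rests on a single Cre driver. Each of the 6 combinations of group and time was 1 library, so the conditions have no replicate, no difference between them was tested, and 95% intervals cover counting error only. In the plots, Ctrl stands for control and cKO for Tgfbr2-cKO.

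Conventional dendritic cells take up antigen in tissue, load it on MHC class II molecules and carry it to lymph nodes, where they prime T cells. The type 2 subset is known for Sirpa, the transcription factors Irf4 and Klf4, and C-type lectins, carbohydrate-binding receptors of which Mgl2 (CD301b) and Cd209a (a mouse relative of DC-SIGN) are examples. Tnfsf8 encodes CD30 ligand, Gna14 a G protein alpha subunit, and Lyzl4 a lysozyme-like protein. Ciita is the coactivator that switches on MHC class II genes. In mm10 annotation Mgl2 lies at chr11:70130329-70137550 on the plus strand, Cd209a at chr8:3743397-3748984 on the minus strand, Tnfsf8 at chr4:63831308-63861347 on the minus strand, and Gna14 at chr19:16435762-16610820 on the plus strand. Lyzl4, at chr9:121577843-121642096 on the minus strand, overlaps the gene model Gm47097 on the same strand, so counts of Lyzl4 are uncertain.

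MHC class II promoters carry a conserved CCAAT-type box, and the letters CTGATTGG were searched on both strands of the 250 bases before each start in RefSeq (GRCm38.p6). They were present before 3 of the 7 MHC class II genes that had an entry among the 8 looked up, and in the same window of 1258 of 32851 RefSeq promoters (3.83%). The 3 are shown with the box in capitals and each sequence 5′ to 3′ on the gene's strand. Of them, H2-Aa is a rule gene and H2-Eb1 is compared below. H2-Aa (chr17:34287824-34288073, minus strand) holds it 47 bases before the start, H2-Eb1 (chr17:34305617-34305866, plus strand) 58 bases and H2-Oa (chr17:34092129-34092378, plus strand) 42 bases before the start, as counted to the middle of the box.
H2-Aa: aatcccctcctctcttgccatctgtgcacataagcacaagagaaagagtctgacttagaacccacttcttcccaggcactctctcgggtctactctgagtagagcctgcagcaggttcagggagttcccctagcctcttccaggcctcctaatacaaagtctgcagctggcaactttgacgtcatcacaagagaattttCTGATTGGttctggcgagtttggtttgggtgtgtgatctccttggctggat
H2-Eb1: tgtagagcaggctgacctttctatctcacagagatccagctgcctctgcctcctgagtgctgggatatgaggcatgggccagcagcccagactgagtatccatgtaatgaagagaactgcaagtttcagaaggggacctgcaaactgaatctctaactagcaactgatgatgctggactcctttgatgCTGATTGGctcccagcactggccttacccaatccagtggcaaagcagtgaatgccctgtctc
H2-Oa: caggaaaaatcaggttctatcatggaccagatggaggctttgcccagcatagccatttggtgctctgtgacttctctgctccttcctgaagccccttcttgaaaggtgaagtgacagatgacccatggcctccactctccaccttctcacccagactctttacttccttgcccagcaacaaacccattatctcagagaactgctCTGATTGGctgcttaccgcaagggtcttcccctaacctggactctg

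The libraries held 64798965 to 140310354 UMIs, and the selected nuclei were deeper than other myeloid-class nuclei in every library, with medians of 6140 to 12986.5 against 3578 to 7079.5 UMIs. Neural nuclei made up 3.93% to 10.7% of the control and ADWA11 libraries, against 70.7% of the Tgfbr2-cKO library at 7 dpi and 41.4% at 21 dpi. Library pairs shared 21 to 61 barcodes, and no selected nucleus shared its barcode with a selected nucleus of another library. In fibroblast-class nuclei Tgfbr2 was at 326 CPM (UMIs per 1000000 UMIs of the nuclei summed) in the 7 dpi control library. It was at 245 CPM with ADWA11 and at 233 CPM in the knockout of that day. The 21 dpi values were 225, 199 and 191 CPM. Counts from the 3′ end of a transcript need not show the deleted exon.

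The name of a dendritic cell was borne out only in part. A list of 8 dendritic cell genes (Flt3, Zbtb46, Itgax, Kit, Bcl11a, Dpp4, Runx3 and Batf3) summed to 374 to 520 CPM in the selected nuclei and to 115 to 198 CPM in other myeloid-class nuclei, higher in 6 of 6 libraries, with Batf3 at 0 in Tgfbr2-cKO at 7 dpi. In that library 6 nuclei classed as neurons, described below, held 80.4% of the UMIs of the selected nuclei. Its nuclei with exactly 1 counted rule gene, not selected, had 376 CPM of this list and 13101 CPM of neuron genes. The part of neuron RNA in the dendritic cell list there was not tested. The 16 macrophage genes summed to 1302 to 8803 CPM in the selected nuclei, against 7733 to 11465 in other myeloid-class nuclei. They were lower in 6 of 6 libraries. Of the 453 nuclei, 358 held UMIs of 4 or more macrophage genes. Flt3, the receptor on which conventional dendritic cells depend, had a UMI in 79 of 453. The list of 12 type 2 dendritic cell genes was higher than in other myeloid-class nuclei in 2 of 6 libraries (398 to 1513 against 1075 to 1552 CPM). The selected nuclei are therefore described by their rule and not as a cell type.

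By marker classes, which needed 3 detected genes of a class and more than of any other, 349 of the 453 were myeloid, 31 fibroblast, 8 astrocyte, 6 neuron, 4 endothelial, 2 T cell, 1 oligodendrocyte and 52 in no class. All 6 neuron-class nuclei were in the Tgfbr2-cKO library at 7 dpi and held 80.4% of that library's selected UMIs. Fibroblast genes summed to 11.3 to 1806 CPM in the selected nuclei against 46.4 to 584 in other myeloid-class nuclei, higher in 5 of 6 libraries. Astrocyte genes summed to 172 to 1538 against 92.8 to 339 CPM and oligodendrocyte precursor genes to 113 to 986 against 42.9 to 394 CPM, each higher in 6 of 6 libraries. Oligodendrocyte genes were at 502 to 911 against 280.3 to 836 CPM and neuron genes at 45.5 to 12117 against 16.3 to 1713 CPM, each higher in 5 of 6. The monocyte list was at 123 to 621 against 118 to 291 CPM (5 of 6 libraries higher), the microglia list at 295 to 1252 against 424 to 2322 (0 of 6), the type 1 dendritic cell list at 950 to 1306 against 1207 to 1879 (0 of 6), the mature dendritic cell list at 70.2 to 205 against 66.1 to 120 (4 of 6) and the plasmacytoid list at 175 to 346 against 78.8 to 184 (6 of 6). All 5 mast cell genes were at 0 in 4 libraries, and natural killer cell genes summed to at most 29.96 CPM.

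Among the selected nuclei, Lyzl4 was detected in 340 (75.1%), Tnfsf8 in 237 (52.3%), Mgl2 in 170 (37.5%), Gna14 in 146 (32.2%) and Cd209a in 71 (15.7%). The most frequent pair was Tnfsf8 with Lyzl4, in 138 nuclei, followed by Mgl2 with Lyzl4 in 94, of which 52 came from the ADWA11 library at 21 dpi. Mgl2 and Cd209a were found together in 43 nuclei, and 255 held neither. These shares are set by the rule and describe it. Both its C-type lectin arm and its Tnfsf8 and Gna14 arm were found in every library, in proportions that the plot of rule genes by library shows.

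Mgl2 was detected in 13.1% of the selected control nuclei, 47.2% of those of ADWA11 and 8.33% of those of Tgfbr2-cKO at 7 dpi. The 21 dpi shares were 31.2%, 75.7% and 30% in that order. Tnfsf8 was lowest in ADWA11 at both times, with 74.5%, 51.4% and 58.3% at 7 dpi and 58.1%, 15.0% and 70% at 21 dpi. Gna14 was in 52.6%, 9.72% and 75% at 7 dpi and in 36.6%, 9.35% and 25% at 21 dpi. Mgl2 or Cd209a was present in 26 of 137 control nuclei (19.0%, exact binomial interval 12.8 to 26.6), 38 of 72 ADWA11 nuclei (52.8%, 40.7 to 64.7) and 3 of 24 Tgfbr2-cKO nuclei (12.5%, 2.66 to 32.4) at 7 dpi. At 21 dpi the shares were 34.4% (24.9 to 45.0), 86.9% (79.0 to 92.7) and 30% (11.9 to 54.3). These values chose the nuclei and are a description of each library.

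**Figure D1:**
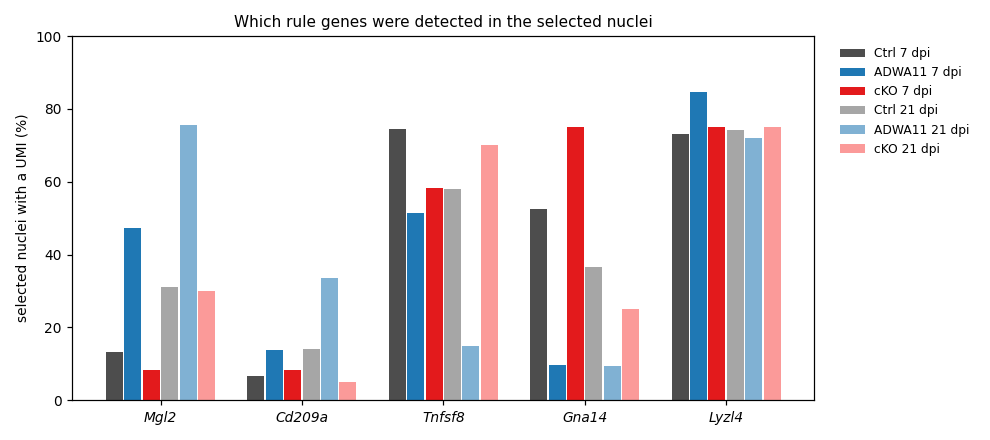
Percent of the selected nuclei of each library with a UMI of Mgl2, Cd209a, Tnfsf8, Gna14 and Lyzl4 (bars from 0, 1 bar per library). Mgl2 is tallest in the ADWA11 library at 21 dpi, at 75.7%, and Tnfsf8 is lowest there, at 15.0%.

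The same genes outside the selection give the background. In other myeloid-class nuclei Mgl2 was detected in 0.382%, 1.55% and 0.352% of nuclei of control, ADWA11 and knockout at 7 dpi, and in 2.08%, 4.40% and 0.483% at 21 dpi. Fibroblast-class nuclei, which should lack it, had 0% (0 of 334, which allows up to 0.898%) to 1.38% at median depths of 5579 to 9635 UMIs, and neuron-class nuclei had 0% to 1.64% at 7314 to 24215 UMIs. Lyzl4 was in 21.6% to 43.3% of other myeloid-class nuclei and in 3.28% to 45.3% of neuron-class nuclei. With every nucleus thinned to 2000 UMIs, Mgl2 was left in 5.15%, 15.3% and 0% of the selected nuclei at 7 dpi and in 13.2%, 36.3% and 20% at 21 dpi.

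Around the threshold, 4378 nuclei held exactly 1 of the 5 genes and passed every other condition, 401 held 2, 47 held 3 and 5 held 4 or 5. Flt3 was at 11.2, 28.1, 82.6 and 254 CPM in these 4 classes, and Zbtb46, a transcription factor of conventional dendritic cells, at 25.6, 49.6, 100.4 and 274 CPM. Ciita was at 96.4, 142, 257 and 391 CPM. Itgax (45.2, 83.2, 107 and 58.6 CPM), Klf4 (7.48, 14.2, 15.3 and 0) and Irf4 (3.18, 6.61, 5.08 and 58.6) did not rise at every step. Libraries were unevenly mixed, with 27 of the 47 from control at 7 dpi and 4 of the 5 from control at 21 dpi. Within some libraries the order was not seen, but on few nuclei. From 2 to 3 genes Flt3 went from 40.8 to 0 CPM in Tgfbr2-cKO at 7 dpi (4 nuclei, interval 0 to 50.5). Zbtb46 went from 64.0 to 0 CPM in ADWA11 at 21 dpi (6 nuclei, interval 0 to 69.9). Both intervals held the value at 2 genes. The macrophage list was at 5608, 5531, 3218 and 430 CPM. Median depth was 6953, 8526, 6925 and 8425 UMIs, and fibroblast genes were at 957, 1192, 1577 and 3205 CPM. In pooled Flt3, Zbtb46, Ciita and macrophage list values, nuclei with 2 genes lay nearer to those with 1 than with 4 or 5. For Itgax they did not. Of other nuclei, 21 were left out by 2 or more excluded genes and 439 by the lack of an MHC class II UMI.

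Nuclei with Mgl2 or Cd209a and those with neither differed in Ciita and H2-Eb1, which the rule did not use. In the nuclei with Mgl2 or Cd209a, Ciita was at 498, 220 and 1281 CPM in the 7 dpi libraries of control, ADWA11 and Tgfbr2-cKO, and at 296, 376 and 566 CPM in those of 21 dpi. It was at 107, 47.0 and 33.0 CPM and at 52.9, 226 and 65.5 CPM in the nuclei with neither. H2-Eb1, an MHC class II beta chain, was at 1288, 317 and 3203 CPM and at 1635, 658 and 1192 CPM with them, against 79.5, 54.6 and 104 CPM and 55.4, 130 and 59.6 CPM with neither. For both genes the nuclei with Mgl2 or Cd209a were higher in 6 of 6 libraries and the counting intervals were apart in all 6. H2-DMb2, a chain of the peptide exchange factor H2-DM, was higher with them in 4 of 6 libraries, with intervals apart in 1, and the co-stimulatory gene Cd86 in 5 of 6, apart in 3. Only 3 nuclei stood behind the value with them in Tgfbr2-cKO at 7 dpi, and 6 at 21 dpi.

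The same order held for Clec10a, the lectin CD301a and closest paralogue of Mgl2, with which it may share reads, and Dpp4, a surface peptidase (each 6 of 6 libraries, intervals apart in 6), and for Ccr2, the receptor through which monocytes and their descendants reach tissue (6 of 6, apart in 5). Over all libraries Clec10a was at 149 against 11.6 CPM, Dpp4 at 214 against 40.8 and Ccr2 at 216 against 62.8. Flt3 was higher with Mgl2 or Cd209a in 6 of 6 libraries, at 121, 32.9 and 214 CPM and 117, 56.7 and 60.6 CPM against 27.8, 11.3 and 36.3 CPM and 14.8, 13.7 and 47.7 CPM, but its intervals were apart in 2 only. Mertk, a macrophage receptor for dying cells, was higher with them in 1 of 6 libraries, and Sirpa in 1 of 6. Mrc1, the mannose receptor, was higher in 5 of 6 libraries, with intervals apart in 5. Pooled values over all libraries also hold the difference between libraries, since 38 and 93 of the 198 nuclei with Mgl2 or Cd209a were from ADWA11 at 7 and 21 dpi. Median depth was 6244 UMIs with Mgl2 or Cd209a and 10063 with neither, and 73.7% and 83.1% held 4 or more macrophage genes. The part of depth in these differences was not tested.

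The 43 nuclei with both Mgl2 and Cd209a came mostly from ADWA11, with 6 at 7 dpi and 24 at 21 dpi, while 111 of the 255 nuclei with neither gene were from control at 7 dpi. Library and subset therefore cannot be told apart in the pooled values that follow. H2-Eb1 was at 2176 CPM, Ciita at 693, Ccr2 at 595, Dpp4 at 494, Clec10a at 315, Zbtb46 at 172 and Flt3 at 169 CPM, while Mertk was at 270 CPM against 1112 in the nuclei with neither gene, and 37.2% held 4 or more macrophage genes. Mrc1 was at 906 CPM, against 911 in all nuclei with either gene. The 95 nuclei with under 4 macrophage genes, of whatever rule genes, showed 181 CPM of Flt3, 242 of Zbtb46, 545 of Dpp4 and 64.7 of Mertk. The 358 with 4 or more had 21.8, 38.6, 44.3 and 1253 CPM. Mertk is itself on the macrophage list, so its difference follows from that split.

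**Figure D2:**
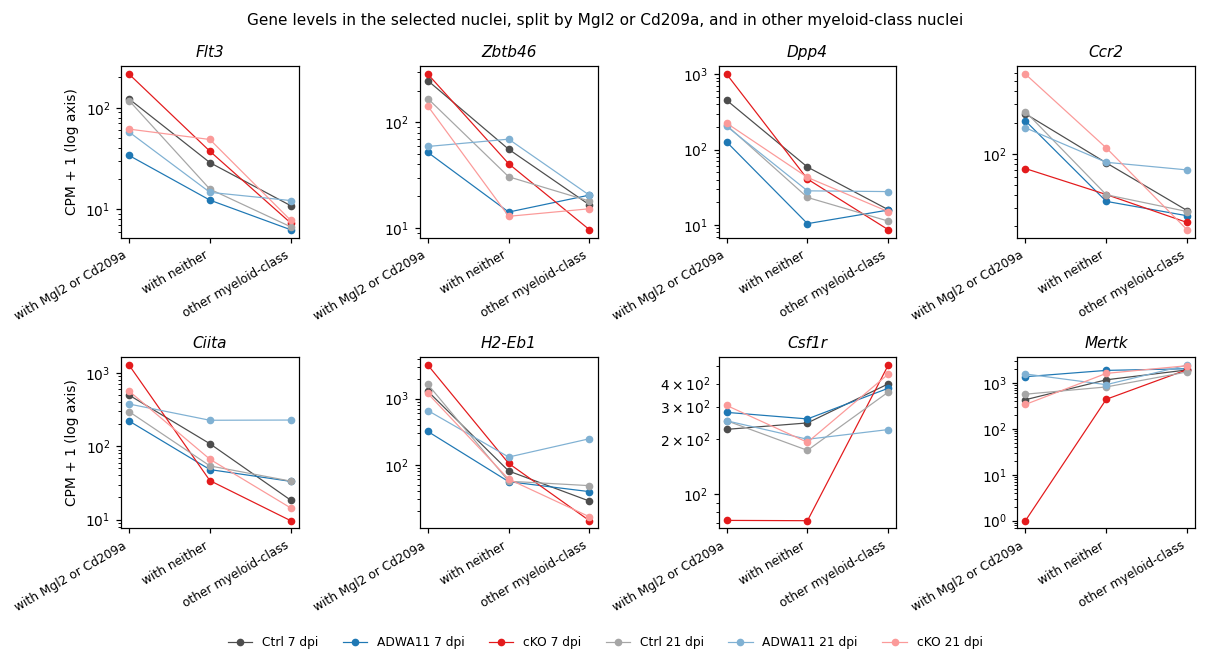
CPM + 1 on a log axis of 8 genes in selected nuclei with Mgl2 or Cd209a, in selected nuclei with neither, and in other myeloid-class nuclei, with a line joining the 3 values of each library. Ciita and H2-Eb1 lie higher with Mgl2 or Cd209a than with neither in all 6 libraries.

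Set beside other nuclei chosen by marker genes, the selected nuclei held intermediate levels of dendritic cell genes. These sets were 171 nuclei of a type 1 dendritic cell type (2 or more of Xcr1, Clec9a, Gcsam, Snx22 and Itgae) and 3 more. A Ccr7 mature type of 87 nuclei held Ccr7 and 2 or more of Ccl22, Fscn1, Il4i1, Cacnb3, Socs2, Relb and Cd200. Both dendritic types also needed an MHC class II rule gene and no Cd3e. Border-type macrophages, 4719 nuclei, held Csf1r and 3 or more of Cd163, Mrc1, Lyve1, F13a1, Stab1 and Pf4. Lesion macrophages, 8065 nuclei, held Csf1r, 3 or more of Spp1, Plau, Gpnmb, Arg1, Trem2 and Fabp5, and at most 2 border-type genes. Flt3 had a median over libraries of 39.2 CPM in the selected nuclei, 455 in the type 1 type, 362 in the mature type, 4.53 in border-type and 3.46 in lesion macrophages. It was below both dendritic types in 6 of 6 libraries and above other myeloid-class nuclei in 6 of 6. Zbtb46 was at 52.5, 378, 202, 20.1 and 14.9 CPM, and Dpp4 at 77.0, 534, 422, 9.20 and 9.24 CPM in the same order of sets.

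Ciita had a median of 143 CPM in the selected nuclei, between 433 in the type 1 type and 96.7 in the mature type, and above 19.99 and 10.6 in the macrophage sets. Clec10a was at 49.2 CPM, at 0 in the medians of both dendritic types, at 41.8 in border-type and at 3.30 in lesion macrophages. Ccr2 was at 112, 243, 0, 19.96 and 11.7 CPM. The mature type held 2 to 41 nuclei per library and the type 1 type 4 to 72, so their medians of 0 rest on few nuclei. Relb, an NF-κB subunit of mature dendritic cells, was at 47.2 CPM against 851 in the mature type, lower in 6 of 6 libraries. Relb is among the genes that chose the mature type, so its high level there was set in part by that choice. Wdfy4, which type 1 dendritic cells use for cross-presentation, was at 267 against 4320 CPM in the type 1 type. Irf4 (6.02 CPM) and Klf4 (15.1 CPM) were higher than in other myeloid-class nuclei (2.21 and 3.96 CPM) in 6 of 6 libraries, and Irf8 in 0 of 6. In both Tgfbr2-cKO libraries Irf4 stood under the floor of 3 UMIs. The type 2 dendritic cell list as a whole was higher in 2 of 6 libraries. Mertk, at 1229 CPM, was nearer to the macrophage sets (1631 and 1794) than to the type 1 type (339). Csf1r was at 229 against 394, 312 and 63.6 CPM. Both macrophage sets were chosen to hold Csf1r, so its order was set in part in advance. Such orders follow in part from the genes that chose each set and are given as descriptions.

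**Figure D3:**
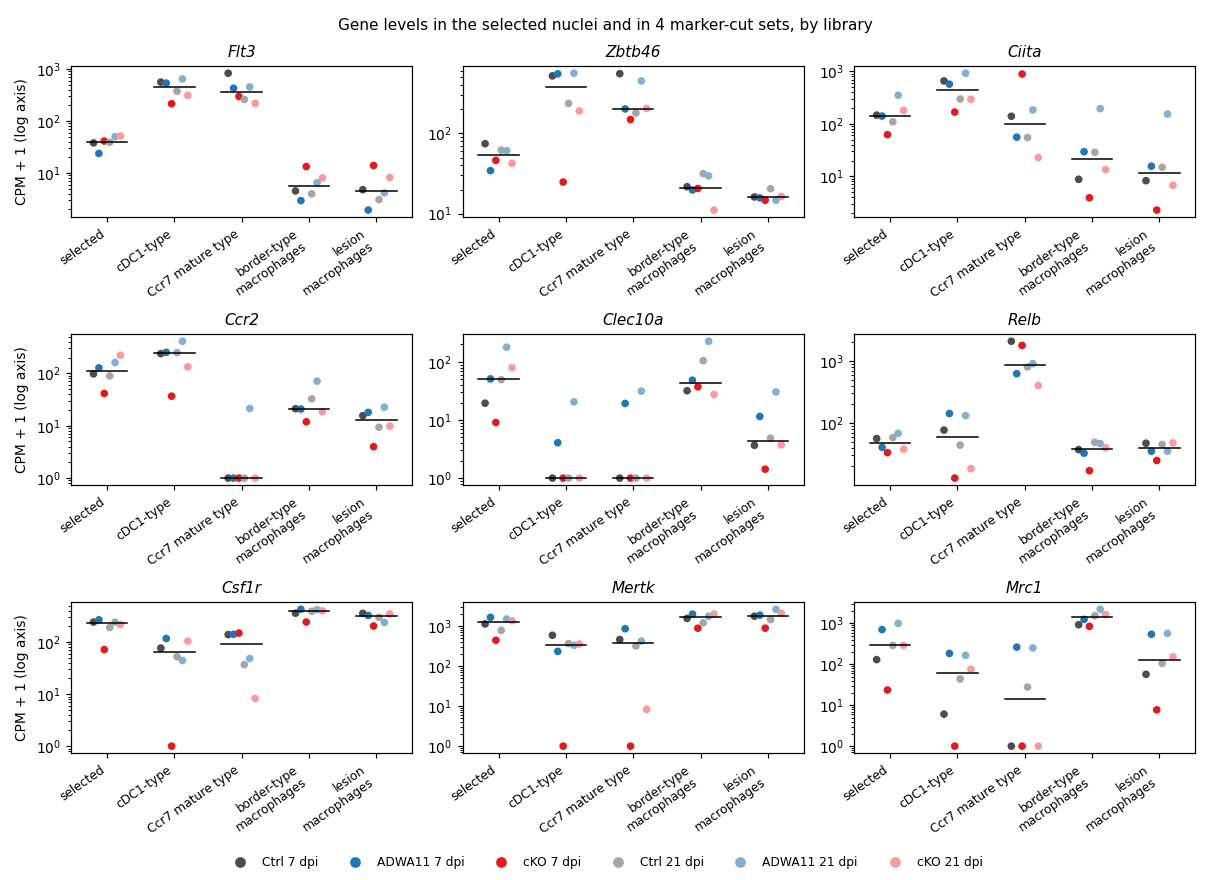
CPM + 1 on a log axis of 9 genes in the selected nuclei and in 4 sets cut by marker genes, 1 point per library with a bar at the median. The medians of the selected nuclei lie between those of the dendritic types and of the macrophage sets for Flt3 and Zbtb46. In the cKO library at 7 dpi the type 1 type rests on 4 nuclei and the mature type on 2.

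The genes that led the selected nuclei over other myeloid-class nuclei were mostly not known dendritic cell genes. Of 6891 genes outside the rule that were detected in 10% or more of the selected nuclei in every library, 464 were higher than in other myeloid-class nuclei in all 6. The 15 with the highest lowest-of-6 log2 ratio (2.35 to 1.94) were Cyp7b1, Rbms3, Dpp4, Sirpb1a, B3galt1, Ctnnd2, Mir100hg, Pdzrn3, Zfp521, Gli3, Srgap1, Rnd3, Nebl, Ptpn13 and Egfr. Cyp7b1, an oxysterol hydroxylase, had ratios of 2.35 to 2.81 on the log2 scale, and Dpp4 2.27 to 3.002. Rbms3, Zfp521, Gli3 and Egfr are also known in stromal or glial cells, whose marker genes were higher in the selected nuclei as given above. Their part in this list was not tested.

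The selected nuclei were 1.70% of the passing nuclei in control (137 of 8070, interval 1.43 to 2.00), 0.653% in ADWA11 (72 of 11028, 0.511 to 0.822) and 0.219% in Tgfbr2-cKO (24 of 10968, 0.140 to 0.325) at 7 dpi. At 21 dpi they were 0.737% in control (93 of 12618, 0.595 to 0.902), 0.834% in ADWA11 (107 of 12828, 0.684 to 1.01) and 0.310% in Tgfbr2-cKO (20 of 6461, 0.189 to 0.478). The log2 ratio to control was -1.38 (interval -1.81 to -0.96) for ADWA11 and -2.96 (-3.65 to -2.32) for Tgfbr2-cKO at 7 dpi. At 21 dpi it was 0.18 (-0.24 to 0.60) for ADWA11, within counting error of 0, and -1.25 (-2.03 to -0.54) for Tgfbr2-cKO. From 7 to 21 dpi the share was lower in control (-1.20, -1.60 to -0.81) and not apart from 0 in ADWA11 (0.35, -0.09 to 0.81) or Tgfbr2-cKO (0.50, -0.43 to 1.42).

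The share depended on which nuclei were in the denominator and on which rule genes were counted. Of myeloid-class and selected nuclei together it was 3.60%, 1.27% and 1.19% for control, ADWA11 and knockout at 7 dpi, and 3.40%, 1.81% and 0.957% at 21 dpi. Without neural classes in the denominator the log2 ratio of Tgfbr2-cKO to control at 7 dpi was -1.31 in place of -2.96, and at 21 dpi it was -0.64 (-1.42 to 0.066) in place of -1.25. The interval at 21 dpi held 0 under 6 of 15 alternatives, among them male-called nuclei (-0.51, -1.70 to 0.61) and myeloid-class selected nuclei alone (-0.49, -1.33 to 0.30). Nuclei with 2 or more of Mgl2, Cd209a and Lyzl4 numbered 12, 32 and 1 at 7 dpi (0.149%, 0.290% and 0.00912%) and 27, 86 and 3 at 21 dpi (0.214%, 0.670% and 0.0464%). For these the log2 ratio of ADWA11 to control was 0.96 (-0.03 to 2.06) at 7 dpi, with a sign opposite to that of the full rule, and 1.65 (1.01 to 2.33) at 21 dpi. Nuclei with both Mgl2 and Cd209a numbered 1, 6 and 1 at 7 dpi and 10, 24 and 1 at 21 dpi. Nuclei of the full rule with under 4 macrophage genes were 37, 8 and 9 (0.458%, 0.0725% and 0.0821%) and 18, 22 and 1 (0.143%, 0.172% and 0.0155%).

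Col1a2, which the rule allows as the only excluded gene detected, whatever its UMIs, was in 68.6%, 62.5% and 0% of the selected nuclei at 7 dpi (0 of 24, which allows a share of up to 12.5%) and in 91.4%, 62.6% and 20% at 21 dpi. In other myeloid-class nuclei it was in 58.2%, 48.6% and 3.27% and in 71.0%, 59.6% and 6.52%. With none of the 6 excluded genes allowed, the log2 ratio of Tgfbr2-cKO to control was -1.25 at 7 dpi and 1.87 at 21 dpi, the second with its sign turned. The part of free fibroblast RNA in the shares was not tested.

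**Figure D4:**
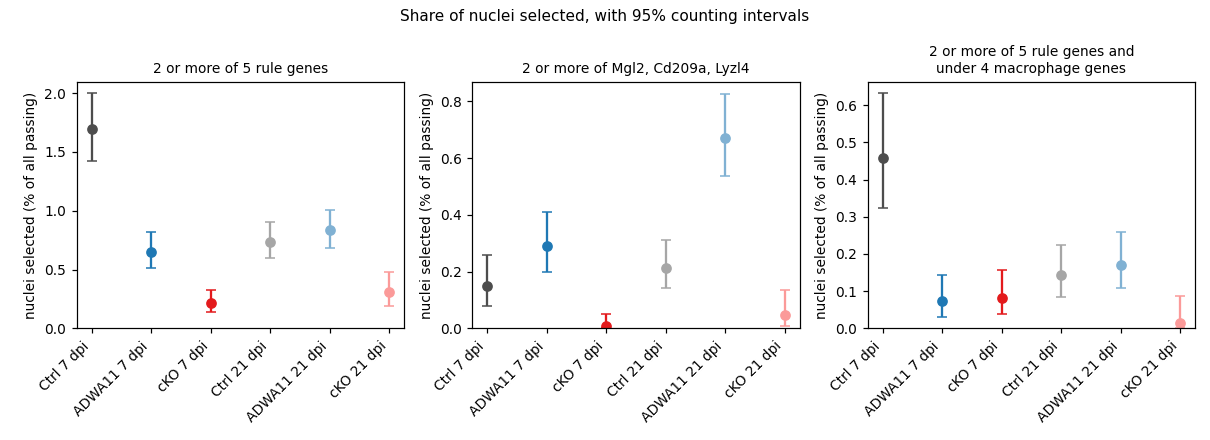
Percent of passing nuclei selected in each library with 95% counting intervals, for the full rule (left), for 2 or more of Mgl2, Cd209a and Lyzl4 (middle) and for the full rule with under 4 macrophage genes (right). Control at 7 dpi is highest under the full rule, at 1.70%, and ADWA11 at 21 dpi is highest under the middle rule, at 0.670%.

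In ADWA11 against control at 7 dpi, C-type lectins were higher in the selected nuclei. ADWA11 and Tgfbr2-cKO are each set against the same control library of their time, so their ratios share its counts. Genes were called past 2-fold when the interval of the CPM ratio also left out 0 on the log2 scale, which 4.21% of 11259 genes with 20 or more UMIs did in the higher direction and 7.77% in the lower. The background among myeloid-class selected nuclei alone, for counts given below, was 519 of 9696 genes higher and 617 lower. Of 10 lectins tested, 8 were called higher and 0 lower, with a median log2 ratio of 2.19 against -0.01 over all genes. Mrc1 was at 705 against 129 CPM, a log2 ratio of 2.45 (2.25 to 2.65), and Clec4a2, an inhibitory lectin, at 71.9 against 9.68 CPM (2.89, 2.20 to 3.64). With 3 or more rule genes Mrc1 turned to -0.035 (-1.27 to 1.03). Clec10a was at 50.01 against 18.5 CPM (1.44, 0.84 to 2.05), but at -0.12 (-1.21 to 0.91) in female-called nuclei, and Clec4b1 at 33.3 against 0.88 CPM (5.24, 3.29 to 8.34). Clec4a1, Clec4a3, Clec4e and Clec12a made up the rest of the 8.

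The lectin difference went with the makeup of the set and with the library. The share of nuclei with Mgl2 or Cd209a, given above, was 52.8% against 19.0%. In other myeloid-class nuclei of the same libraries the median of the lectins was 1.46, with Mrc1 at 1.94 and Clec4a2 at 1.77 on the log2 scale. Among myeloid-class selected nuclei alone the median was 2.20. Microglia genes were lower in the same comparison, 3 of 7 (Sall1, Olfml3 and Cx3cr1) with a median of -1.17, and 4 of 6 with a median of -1.29 among myeloid-class selected nuclei. Of 14 macrophage genes, Mrc1, Cd163 and F13a1 were called higher and 0 lower (median 0.43), and 2 of 3 neuron genes were lower (median -1.91). The part of the makeup and of these markers in the difference was not tested.

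Of 5 chemokines tested at 7 dpi, 3 were called higher in ADWA11 and 0 lower (median 1.44), and among myeloid-class selected nuclei 2 higher and 1 lower (median 0.88). Ccl6, a CC chemokine of mouse myeloid cells, was at 103 against 4.40 CPM (log2 ratio 4.54, 3.61 to 5.64) and Ccl9 at 53.5 against 3.52 CPM (3.93, 2.86 to 5.20). Both were also higher in other myeloid-class nuclei, at 3.23 and 2.24, where the chemokine median was 1.27. Of the MHC class II presentation genes 0 of 9 were called, and their median was 0.03. Among myeloid-class selected nuclei alone 1 of 8 was called lower, with a median of -0.54. Ciita was at 140 against 146 CPM (-0.06, -0.34 to 0.22) and H2-Eb1 at 195 against 198 CPM (-0.02, -0.26 to 0.21).

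Some dendritic cell genes were lower in ADWA11 at 7 dpi. On the dendritic cell list 1 of 8 genes was called higher and 3 lower, with a median of -0.56, and among myeloid-class selected nuclei alone 0 were higher and 5 lower, with a median of -1.52. Zbtb46 was at 33.3 against 73.5 CPM (-1.14, -1.69 to -0.62), while in other myeloid-class nuclei its log2 ratio was 0.33. Runx3, a transcription factor of TGFβ responses, had -1.61 (-2.35 to -0.94), and Flt3, at 22.8 against 37.0 CPM, -0.70 (-1.39 to -0.05), short of 2-fold. Of 16 TGFβ pathway genes, 4 were called lower and 0 higher (median -0.63): Itgb8, the subunit of the integrin that ADWA11 binds, at 29.0 against 63.8 CPM, Smad7 and Skil, both induced by TGFβ, and Itgae, an integrin induced by TGFβ, at 9.65 against 36.5 CPM (-1.92, -2.98 to -1.01). In other myeloid-class nuclei the median of the TGFβ pathway genes was -0.30. Fibroblast genes were also lower in the selected nuclei, 4 of 7 with a median of -1.28. In ADWA11 64 of 72 selected nuclei held 4 or more macrophage genes (88.9%), against 100 of 137 in control (73.0%). The part of both in these differences was not tested.

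By size of change under the fixed rule, the 5 genes named as highest in ADWA11 at 7 dpi were Clec4b1, Ccl6, Ksr2, Ccl9 and Stab2, with log2 ratios of 5.24, 4.54, 4.01, 3.93 and 3.49. Stab2 is a scavenger receptor for hyaluronan. The 5 lowest were Col14a1, Boc, Smoc1, Chst1 and Fam189a2, at -4.58, -4.30, -4.25, -4.09 and -4.00. Col14a1 and Boc are also known in fibroblasts.

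At 21 dpi all 10 lectins tested were called higher in ADWA11 than in control, with a median of 2.11 against 0.00 over all genes. The background was 4.96% of 10118 genes higher and 11.6% lower, and among myeloid-class selected nuclei alone 380 of 7563 genes higher and 835 lower. Mrc1 was at 999.6 against 289 CPM (1.79, 1.60 to 1.98), Clec10a at 179 against 48.5 (1.88, 1.41 to 2.37), Clec4b1 at 64.7 against 5.70 (3.50, 2.29 to 5.01) and Cd209c, a homologue of Cd209a, at 32.4 against 5.70 CPM (2.504, 1.20 to 4.07). In female-called nuclei Clec10a turned to -1.18 (-2.46 to -0.034). In other myeloid-class nuclei the lectin median was 1.32. The share with Mgl2 or Cd209a was 86.9% against 34.4%, and its part was not tested. All 5 neuron genes tested were called lower in the same comparison (median -4.72, and -5.15 for the 4 tested among myeloid-class selected nuclei), as were 2 of 6 microglia genes (Sall1 and Cx3cr1, median -1.11), and 4 of 15 macrophage genes were called higher (Fcgr1, Mrc1, Cd163 and Pf4, median 0.74). The part of these markers was not tested.

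Ciita was higher in ADWA11 at 21 dpi, at 350.0 against 108 CPM (1.69, 1.37 to 2.02). Summed over all selected nuclei this was the highest level of the 6 libraries (311 to 392 CPM, and at most 245 elsewhere), with Mgl2 or Cd209a in 86.9% of nuclei against 34.4% in control. In the nuclei with Mgl2 or Cd209a alone Ciita was not highest there, at 376 CPM against 498 in control at 7 dpi and 1281 and 566 in the knockout at 7 and 21 dpi. In other myeloid-class nuclei its log2 ratio was 2.81. The MHC class II list as a whole had 1 of 9 called higher and 1 lower, with a median of 0.45 (0.026 in myeloid-class selected nuclei). H2-Eb1 was at 566 against 415 CPM (0.45, 0.25 to 0.64). H2-DMb2 was the gene called lower (-1.89, -3.45 to -0.59), and 1 control nucleus held 46.4% of its UMIs.

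MHC class I and interferon genes were partly higher in ADWA11 at 21 dpi. Of 9 MHC class I genes, Tap1, Tapbp, Nlrc5 and Psmb9 were called higher and 0 lower (median 0.82), with the peptide transporter Tap1 at 52.7 against 15.2 CPM (1.79, 0.94 to 2.72) and the coactivator Nlrc5 at 168 against 77.95 CPM (1.11, 0.70 to 1.52). For myeloid-class selected nuclei alone 2 of 9 were called higher and 0 lower (median 0.51). The class I median was 0.42 in other myeloid-class nuclei. Of 14 interferon-stimulated genes, 4 were called higher, among them Irf1, Gbp2 and Gbp5, and 0 lower (median 0.64). Irf1 was at 85.1 against 24.7 CPM (1.78, 1.12 to 2.49) and Gbp2 at 51.5 against 12.4 CPM (2.06, 1.14 to 3.08). The median of the interferon-stimulated genes was 0.77 in other myeloid-class nuclei.

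Chemokines at 21 dpi had 3 of 5 genes called higher and 1 lower in ADWA11. Ccl8, which attracts monocytes, was at 209.7 against 19.0 CPM (3.46, 2.79 to 4.21), Ccl6 at 99.5 against 20.9 CPM (2.25, 1.56 to 2.999), and Ccl9 had 2.17 (0.92 to 3.62). Ccl8 was also higher in other myeloid-class nuclei (3.10), where the chemokine median was 1.42. Ccl17, a chemokine of type 2 and mature dendritic cells, was at 50.4 CPM in control, from 4 nuclei, and at 0 in ADWA11. Against a floor of 3 UMIs in the library that was a log2 ratio of -3.81 or lower. Of 9 co-stimulation and checkpoint genes, Cd40, Cd274 and Cd83 were called higher and Havcr2 lower. For myeloid-class selected nuclei alone 1 of 9 was called higher and 1 lower. Cd274 (PD-L1) was at 125 against 33.3 CPM (1.91, 1.34 to 2.502), with 28.8% of its UMIs in 1 nucleus. Spp1, the osteopontin gene of scar-associated macrophages, was lower, at 98.3 against 316 CPM (-1.68, -2.05 to -1.33).

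The intervals of 2 defining dendritic cell genes held 0 at 21 dpi. Flt3 was at 49.1 against 38.0 CPM (0.37, -0.29 to 1.04) and Zbtb46 at 59.9 against 60.8 CPM (-0.02, -0.59 to 0.53). Of the 8 dendritic cell genes, Dpp4 and Batf3 were called higher and Kit and Runx3 lower (median 0.10). Of 15 TGFβ pathway genes, Nrros was called higher and Tgfbr1, Smad7 and Skil lower (median 0.005). Their median in other myeloid-class nuclei was -0.42. The 5 genes named as highest were Cd226 (4.56), Cd5l (3.93), Stab2 (3.50), Clec4b1 (3.50) and Ccl8 (3.46), and the lowest included Cspg4 (-4.13), Cdh2 (-4.09), Nav3 (-3.94) and Slc26a7 (-3.79). Of the 70 control UMIs of Slc26a7, 3 were in myeloid-class selected nuclei, where its ratio was -1.83 (-7.54 to 1.81). Cd5l, a secreted apoptosis inhibitor of macrophages, and Stab2 are known from tissue macrophages. Cd226 had a log2 ratio of 0.91 in other myeloid-class nuclei against 4.56 in the selected nuclei, and the difference between these was not tested.

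**Figure D5:**
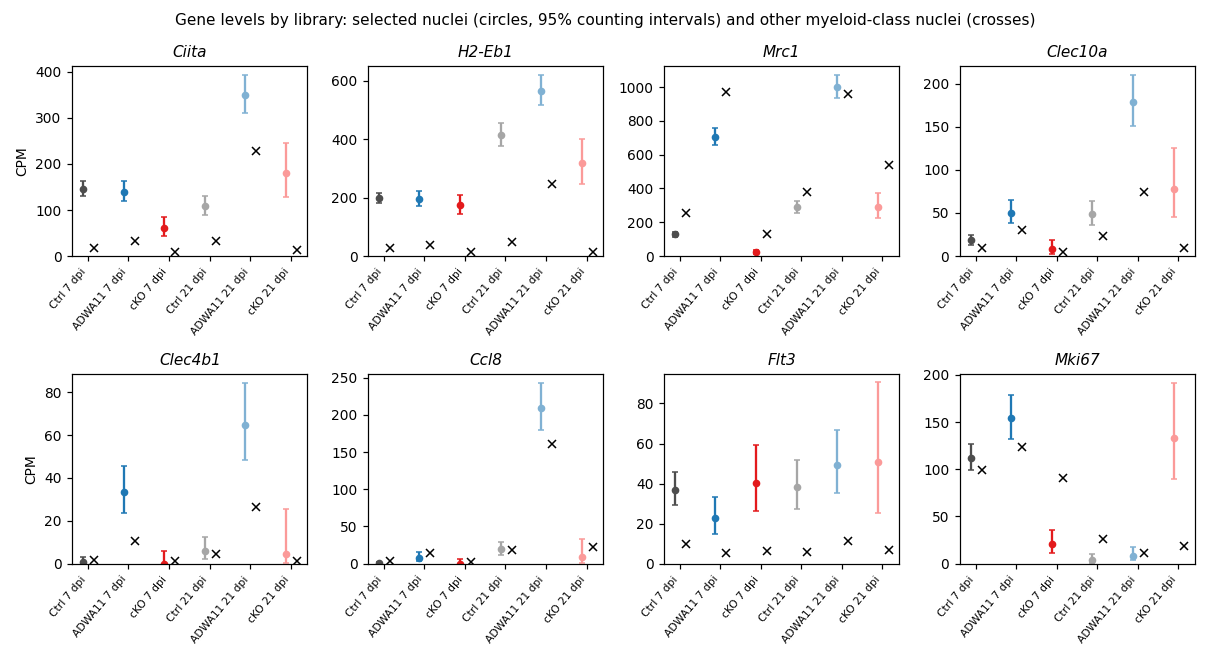
CPM on a linear axis from 0 of Ciita, H2-Eb1, Mrc1, Clec10a, Clec4b1, Ccl8, Flt3 and Mki67 in the selected nuclei of each library (circles, with 95% counting intervals) and in other myeloid-class nuclei (crosses). The circles of ADWA11 at 21 dpi are highest for Ciita, Mrc1, Clec10a, Clec4b1 and Ccl8, and those of Mki67 are low in control and ADWA11 at 21 dpi.

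From 7 to 21 dpi, proliferation genes were lower in the selected nuclei of both groups with many nuclei. In control, 8 of 9 were called lower and 0 higher, with a median of -3.64, where 10.6% of 11572 genes were higher and 4.06% lower. Mki67, which marks cycling cells, was at 3.80 CPM at 21 dpi against 112 at 7 dpi (-4.88, -6.77 to -3.51), with a UMI in 2 nuclei against 36. Top2a was at 10.5 against 131 CPM (-3.64, -4.66 to -2.78). In other myeloid-class nuclei the list had a median of -1.25. In ADWA11 8 of 9 were called lower as well, with a median of -3.64 against -3.35 in other myeloid-class nuclei and a background of 7.34% of 9773 genes higher and 6.36% lower, and Mki67 was at 8.39 against 154 CPM (-4.20, -5.54 to -3.13). In Tgfbr2-cKO 5 of 5 were called higher (median 2.67, and -2.10 in other myeloid-class nuclei). There 26.9% of 6782 genes were called higher and 18.3% lower, with a median over all genes of 0.41. Among myeloid-class selected nuclei alone 2 of 5 were called higher (median 1.33), with a background of 279 of 3581 genes higher and 262 lower. Over all selected nuclei of Tgfbr2-cKO Mki67 was at 133 against 21.0 CPM, with a UMI in 3 nuclei at 21 dpi and 65.5% of its UMIs in 1.

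In control, H2-Eb1, H2-DMa and H2-DMb2 were called higher at 21 than at 7 dpi (3 of 10 MHC class II genes, median 0.28). Of 5 neuron genes, 4 were called higher in the same comparison (median 3.06, and 5.01 among myeloid-class selected nuclei), and their part was not tested. H2-Eb1 was at 415 against 198 CPM (1.07, 0.88 to 1.26), and 1 nucleus held 34.6% of its UMIs at 21 dpi. In male-called nuclei its ratio turned to -0.52 (-1.02 to -0.041). H2-DMb2 (1.83, 0.91 to 2.79) and H2-DMa (1.08, 0.48 to 1.68) had 46.4% and 30.6% of theirs in 1 nucleus. Ciita was not higher, at 108 against 146 CPM (-0.43, -0.75 to -0.11). Chemokines had 3 of 5 called higher, among them Ccl17, at a log2 ratio of at least 5.25 against the floor of 3 UMIs, from 4 nuclei, and Ccl8 (5.43, 2.79 to 10.8). Mrc1 (1.16, 0.92 to 1.40) and Clec10a (1.39, 0.77 to 2.02) were higher, with Mgl2 or Cd209a in 34.4% against 19.0% of nuclei, and Clec10a turned to -0.24 (-1.45 to 0.89) with under 4 macrophage genes. Spp1 was at 316 against 1120.0 CPM (-1.83, -1.997 to -1.66). Flt3 was at 38.0 against 37.0 CPM (0.04, -0.54 to 0.60). The 5 genes named as highest were Igkc, an antibody light chain of plasma cells, Id4, Lcn2, Phkg1 and Rmst, with log2 ratios of 5.76 to 6.18, that of Lcn2 a bound, and the lowest were Mki67, Tpx2, Efcab11, Prc1 and Ckap2l. Myeloid-class selected nuclei held 27 of the 67 UMIs of Igkc at 21 dpi and 4 of the 32 of Id4. For Lcn2 they held 7 of 89, for Phkg1 16 of 53 and for Rmst 8 of 100. In them the ratio of Id4 was 3.41 (0.07 to 9.03).

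In ADWA11 Ciita and H2-Eb1 were higher at 21 than at 7 dpi. Ciita had a log2 ratio of 1.33 (1.04 to 1.61) and H2-Eb1 of 1.54 (1.30 to 1.77), with 2.82 and 2.69 in other myeloid-class nuclei, and the MHC class II list had 2 of 8 called higher (median 0.88; 4 of 7 and 1.21 among myeloid-class selected nuclei). Of 9 MHC class I genes 0 were called (median 0.70). The background among myeloid-class selected nuclei alone was 508 of 8516 genes higher and 728 lower. Fibroblast genes moved too, with Col1a1, Dcn and Lum called higher and Pdgfra lower of 7 (median 0.85), and their part was not tested. Flt3 was at 49.1 against 22.8 CPM (1.11, 0.36 to 1.87), but at -0.47 with under 4 macrophage genes and at -0.13 in male-called nuclei. Of the 8 dendritic cell genes, Flt3 and Dpp4 were called higher and Itgax lower (median 0.68). Spp1 was lower (-4.09, -4.43 to -3.77), as in other myeloid-class nuclei (-3.40), and Ccl8 was higher (4.73, 3.77 to 5.88). The genes named as highest were C3, Gabrb1, Ccl8, Gfap and Col14a1, of which Gfap is an astrocyte gene and Col14a1 is known in fibroblasts, and the lowest were the cell cycle genes Cdca2, Tpx2, Depdc1b, Sgo2a and Cenpf. Myeloid-class selected nuclei held 13 of the 71 UMIs of C3 at 21 dpi and 32 of the 203 of Gabrb1. For Gfap they held 9 of 49 and for Col14a1 5 of 81, against 136 of 175 for Ccl8. Mgl2 or Cd209a was in 86.9% against 52.8% of nuclei.

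The Tgfbr2-cKO library at 7 dpi gave 24 selected nuclei, and 6 neuron-class nuclei held most of their UMIs. All 8 neuron genes were called higher than in control (median 5.89), where 12.9% of 11172 genes were higher and 26% lower, and the median of all genes was shifted by -0.53 on the log2 scale. The background among the 16 myeloid-class selected nuclei alone was 435 of 8182 genes higher and 311 lower. Over all selected nuclei the split between directions turned with the scaling, from 1443 higher and 2901 lower to 1924 and 1574 with TMM factors and to 2048 and 1421 with median-of-ratios factors. MHC class II genes had 6 of 9 called lower, with a median of -1.29, but of 0.30 among the 16 myeloid-class selected nuclei. Ciita was at 61.3 against 146 CPM (-1.25, -1.77 to -0.76) and Ccr2 at 40.3 against 96.8 CPM (-1.26, -1.92 to -0.66). Both turned to 0.54 and 0.27 in myeloid-class nuclei alone. H2-Eb1 was at 174 against 198 CPM (-0.19, -0.50 to 0.12; 1.57 in myeloid-class nuclei alone). Mrc1 was lower, at 22.6 against 129 CPM (-2.52, -3.41 to -1.75), and 12 of 13 macrophage genes were called lower (median -1.45). Among myeloid-class selected nuclei alone 3 of 13 were called lower (median 0.09), and Mrc1 was at -1.46 (-3.36 to -0.074). Flt3 was at 40.3 against 37.0 CPM (0.13, -0.58 to 0.78). On the dendritic cell list Bcl11a was called higher and Itgax and Batf3 lower, of 8 tested (median -0.51). In myeloid-class selected nuclei 4 of 7 were called higher and 0 lower (median 1.11). Interferon-stimulated genes had 3 of 16 called higher and 1 lower (median -0.09). In myeloid-class selected nuclei 9 of 15 were called higher and 0 lower (median 1.57). The median of this list in other myeloid-class nuclei was 1.88. The genes named were Tmem178 as higher (2.87) and Col3a1, Col1a1, F13a1, Lama4 and Rbpms as lower (-7.07 to -5.37), of which Col3a1 is a bound and Col3a1 and Col1a1 are collagen genes of fibroblasts.

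At 21 dpi the 20 selected nuclei of Tgfbr2-cKO mice were compared with the 93 of control mice, with a background of 5.38% of 8824 genes higher and 10.1% lower. The background among myeloid-class selected nuclei alone was 321 of 6162 genes higher and 592 lower. Of 10 chemokine and migration receptors, 5 were called higher and 0 lower (median 1.05), and Ccr2 was at 221 against 88.4 CPM (1.32, 0.79 to 1.84), with -0.61 in other myeloid-class nuclei. Among myeloid-class selected nuclei alone 0 of 7 receptors were called (median 0.21), Ccr2 was at 0.36 (-0.26 to 0.97), and in female-called nuclei Ccr2 turned to -2.18. Neuron genes were called lower in 3 of 5 (median -1.84; 4 of 5 and -3.07 in myeloid-class selected nuclei) and fibroblast genes in 6 of 7 (median -2.31), and their part was not tested. Of 13 interferon-stimulated genes, 6 were called higher and 0 lower (median 1.03), and among myeloid-class selected nuclei 5 of 12 were higher and 1 lower (median 0.57). Single nuclei carried 3 of the 6, with 89.6% of the UMIs of Rsad2, 74.1% of those of Gbp5 and 61.5% of those of Usp18 in 1 nucleus each, and only 3, 5 and 4 nuclei held a UMI of them. Ciita was at 179 against 108 CPM (0.73, 0.16 to 1.26), with -1.28 in other myeloid-class nuclei, and H2-Eb1 at 318 against 415 CPM (-0.39, -0.78 to -0.02). Of 8 MHC class II genes, 0 were called, with a median of 0.30. Among myeloid-class selected nuclei alone 0 of 8 were called higher and 2 lower, with a median of -0.24, H2-Eb1 at -1.23 (-1.63 to -0.85) and Ciita at 0.17 (-0.45 to 0.75). The differences between the selected and the other nuclei were not tested.

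Mki67 (5.13, 3.62 to 7.102) and 4 other proliferation genes were called higher in these 20 nuclei, but only 3 nuclei held Mki67 and 1 of them 65.5% of its UMIs. Spp1 was higher (2.11, 1.88 to 2.34), with 52.0% of its UMIs in 1 nucleus, and turned to -0.83 in female-called nuclei and to -0.43 with 3 or more rule genes. Flt3 was found in 2 nuclei (50.6 against 38.0 CPM, 0.41, -0.70 to 1.40), and Zbtb46 had -0.55 (-1.75 to 0.46). The genes named as highest were Fkbp5 (2.02, with 2.69 in other myeloid-class nuclei), P2ry14, Ipcef1, Ehbp1l1 and Cep192, at 1.91, 1.82, 1.70 and 1.62. The lowest were Epha3, Nckap5, Tmeff2, Itgbl1 and Col8a1, at -6.60 to -5.16, with Itgbl1 and Col8a1 bounds, and 6 of 7 fibroblast genes were lower too. Between 7 and 21 dpi in Tgfbr2-cKO mice, 26.9% of 6782 genes were higher and 18.3% lower, and the median of all genes was 0.41. Here too the split turned, from 1823 higher and 1239 lower to 883 and 1630 with TMM factors and to 769 and 1737 with median-of-ratios factors. All 8 neuron genes were lower (median -5.18) with the neuron-class nuclei of the earlier library, so the change over time and the makeup of the libraries cannot be told apart. The genes named there were Myof, Cd44, Itga4, Ehbp1l1 and C1qc as higher (3.71 to 3.37, and 1.12 to 1.76 among myeloid-class selected nuclei alone) and Tmem178 and Rnf157 as lower (-4.19 and -1.15).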

How the data were processed

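The deposited matrices hold counts of UMIs per gene and barcode for 6 libraries, which the authors made with Cell Ranger (7.2.0 in the file headers and in the study's methods, 7.1.0 in the submitters' processing notes) on mm10, with nuclear RNA read by the 10x 3′ kit. They were not normalized. Nuclei with 800 UMIs or more and under 5% mitochondrial UMIs were kept, which left library totals and passing nuclei as given in the report. The members, the gene lists and the rule were chosen with earlier results of these data known. Doublets were not called. Removing the top 2.5% of nuclei by UMIs was an alternative.

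Counts of the selected nuclei were summed per library and given as CPM of non-mitochondrial UMIs. With 1 library per group no test was made. Ratios carry conditional binomial, shares Clopper-Pearson and single levels Poisson intervals at 95%, all for counting error only, since nuclei are not replicates and the libraries pool 2 mice. Genes entered a comparison with 20 or more UMIs over both libraries, and a gene was called past 2-fold with an interval leaving out 0. A gene at 0 was set to a floor of 3 UMIs per library for a bound. The simulated check of this call is not quoted.

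The genes named were, in each comparison, the measured genes of the function lists and the 5 largest ratios in each direction among called genes with 30 or more UMIs in the higher library. These had the same direction in female-called and male-called nuclei and no nucleus with over 25% of their UMIs, and were not mitochondrial, sex-linked marker, rule or unnamed (Gm, Rik) genes. Some genes that this rule named are not reported here. Leading genes were the 15 outside the rule with the highest lowest-of-6 ratio to other myeloid-class nuclei. From the lists fixed for these data, Clec7a and Mx1 were not analysed here, and Sting1 was read as Tmem173. Python 3.11.15 with numpy 2.4.6, scipy 1.17.1 and pandas 2.3.3 was used, and TMM factors came from edgeR 4.0.16 in R 4.3.3 as an alternative scaling. Promoters of Ciita and H2-Ab1 were not used here.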

Additional observations from a re-analysis of the deposited data

Results flagged for a closer look

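The share of selected nuclei in ADWA11 against control had a log2 ratio of -1.38 at 7 dpi and of 0.18 at 21 dpi, of opposite sign. The interval of the second (-0.24 to 0.60) held 0, and with 1 library per group and time the difference between the times was not tested. Over 15 alternatives the signs at the 2 times were opposite under 9 and alike under 6. They were opposite, for example, with none of the 6 excluded genes (-1.14 and 2.19) and after thinning (-3.39 and 0.88). Of myeloid-class and selected nuclei together the ratios were -1.505 and -0.91, and for 2 or more of Mgl2, Cd209a and Lyzl4 they were 0.96 and 1.65.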

How the results depend on the processing

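No paired analysis was possible because each group has 1 library and the values come from no test, and with 1 library no replicate was left out. Comparisons are named here by group and day: Tgfbr2-cKO and ADWA11 against control at 7 or 21 dpi, and each group at 21 against 7 dpi. Alternatives with myeloid-class nuclei alone, with both Mgl2 and Cd209a and without Lyzl4 were chosen after seeing the data. The cause of the shifts was not tested.

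Under the full rule the log2 ratios of the share were -2.96 and -1.25 (Tgfbr2-cKO), -1.38 and 0.18 (ADWA11) and -1.20, 0.50 and 0.35 (control, Tgfbr2-cKO and ADWA11 over time). A turned sign is named where the interval of the full rule left out 0. Counting 2 or more of Mgl2, Cd209a and Lyzl4 gave -4.03 and -2.20 in the knockout at 7 and 21 dpi, 0.96 (ADWA11, 7 dpi, sign turned), 1.65 (ADWA11, 21 dpi), 0.53 (control over time, sign turned), 2.35 (Tgfbr2-cKO over time) and 1.21 (ADWA11 over time). Requiring both Mgl2 and Cd209a gave -2.36 (Tgfbr2-cKO, 21 dpi), 2.13 (ADWA11, 7 dpi, sign turned), 1.24 (ADWA11, 21 dpi), 2.68 (control over time, sign turned) and 1.78 (ADWA11 over time). Allowing none of the 6 excluded genes gave -1.25 (Tgfbr2-cKO, 7 dpi), 1.87 (Tgfbr2-cKO, 21 dpi, sign turned), 2.19 (ADWA11, 21 dpi) and -3.04 (control over time). Leaving out neural classes gave -1.31 (Tgfbr2-cKO, 7 dpi) and -0.50 (Tgfbr2-cKO over time), and a myeloid denominator -1.59 (Tgfbr2-cKO, 7 dpi), -0.91 (ADWA11, 21 dpi) and -0.083 (control over time). Female-called nuclei gave -4.48 (Tgfbr2-cKO, 7 dpi), -2.08 (ADWA11, 7 dpi) and -1.88 (control over time), and male-called nuclei -0.51 (Tgfbr2-cKO, 21 dpi).

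With 3 or more rule genes the ratios were -2.03 (Tgfbr2-cKO, 21 dpi), -2.88 and -0.44 (ADWA11, 7 and 21 dpi), -2.40 (control over time) and -1.56 (Tgfbr2-cKO over time). Under 4 macrophage genes gave -3.20 (Tgfbr2-cKO, 21 dpi), -2.66 (ADWA11, 7 dpi), -1.68, -2.41 and 1.24 (control, Tgfbr2-cKO and ADWA11 over time). Thinning gave -2.89 (Tgfbr2-cKO, 21 dpi), -3.39 and 0.88 (ADWA11, 7 and 21 dpi), -1.66, -1.55 and 2.60 (over time). Myeloid-class nuclei alone gave -0.49 (Tgfbr2-cKO, 21 dpi), 0.65 (ADWA11, 21 dpi) and -1.78 (control over time). Not counting Lyzl4 gave -2.38 (ADWA11, 7 dpi) and 0.92 (ADWA11 over time), and asking for Flt3, Zbtb46 or Itgax as well -1.64 (control) and -0.12 (ADWA11) over time.

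The count of genes past 2-fold was 4344 and 1364 (Tgfbr2-cKO, 7 and 21 dpi), 1349 and 1679 (ADWA11), and 1692, 3062 and 1339 (control, Tgfbr2-cKO and ADWA11 over time). With 3 or more rule genes it was 1206, 494, 601 (ADWA11, 21 dpi), 895, 549 and 437. With under 4 macrophage genes it was 1170, 170, 423, 472, 1051, 179 and 466. With 50 or more UMIs it was 864 and 1032 for ADWA11 and 1004, 1859 and 661 over time, where fewer genes were tested. With myeloid-class nuclei alone it was 746 (Tgfbr2-cKO, 7 dpi) and 541 (Tgfbr2-cKO over time). TMM and median-of-ratios scaling kept these totals within 1.5 times, but turned the balance of directions in both comparisons that use the Tgfbr2-cKO library at 7 dpi, as given in the report. The interval of the Tgfbr2-cKO share at 21 dpi held 0 under 6 of 15 alternatives: without neural classes (-0.64), in female-called (-1.37), male-called and myeloid-class nuclei, with 3 or more rule genes and with both Mgl2 and Cd209a.

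Single values turned sign for Mrc1 (-0.035 with 3 or more rule genes) and Clec10a (-0.12 in female-called nuclei) in ADWA11 at 7 dpi, and in female-called nuclei at 21 dpi for Clec10a (-1.18) and the chemokine list (-0.25). They turned over time for H2-Eb1 (-0.52, male-called) and Clec10a (-0.24, under 4 macrophage genes) in control and Flt3 (-0.47, under 4 macrophage genes, and -0.13, male-called) in ADWA11. In Tgfbr2-cKO at 7 dpi they turned for Ciita (0.54) and Ccr2 (0.27) in myeloid-class nuclei and for the MHC class II list (0.68 male-called, 0.30 myeloid-class), and at 21 dpi for Ccr2 (-2.18, female-called) and Spp1 (-0.43 with 3 or more rule genes, -0.83 female-called). The lectin list had medians of 1.42 to 2.71 (ADWA11, 7 dpi) and 0.77 to 2.24 (ADWA11, 21 dpi) over its alternatives. Depth limits what 20 and 24 nuclei can show.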
